A study of Mus musculus with 9 samples.

Results

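The C/EBP transcription factors measured here are Cebpa, Cebpb, Cebpd and Cebpg, taken by gene symbol: every probe set that the platform annotation assigns to one of these 4 genes alone was used. Each gene had 1 probe set, and these 4 genes stand among 8251 genes with a probe set of their own. All 4 passed the filter on dim values. Expression was measured on 1-colour oligonucleotide arrays in total RNA of OB-6 cells, a murine bone marrow-derived line with osteoblastic features. The cells had received parathyroid hormone (PTH), which raises cAMP in osteoblasts, for 0 min (the basal level), 30 min or 60 min. Each time has 3 arrays, replicates a, b and c. The question was which of these genes change within the first hour. No genotype or allele is named for the cells, the hormone dose is not given in the sources used here, and untreated cultures kept for 30 or 60 min were not analysed here. The labels do not say whether replicates are separate cultures, so p-values measure the spread between arrays, which may be technical.

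C/EBP proteins are basic leucine zipper factors that bind DNA as dimers with each other or with related factors. Cebpb and Cebpd are known as early, inducible members that respond to cAMP, cytokines and glucocorticoids and act early in adipocyte differentiation, whereas Cebpa acts later in that programme and in granulocytes. In osteoblasts Cebpb and Cebpd are known to act on genes of bone formation and of growth factor and cytokine production. Cebpg lacks a strong activation domain and works largely through the partners it dimerises with.

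The promoter windows are shown because cAMP signalling can act on genes through DNA elements near the start, which was not tested here. RefSeq windows (build GRCm38.p6, 250 bases before to 50 after the annotated start, so upstream sequence and the first transcribed bases) matched 3 of the 4 genes, Cebpa, Cebpb and Cebpg. Cebpb lies at chr2:167688665-167688964 on the plus strand, Cebpa at chr7:35119043-35119342 on the plus strand and Cebpg at chr7:35056517-35056816 on the minus strand, so Cebpa and Cebpg both lie on chromosome 7. Sequences run 5′ to 3′ on the strand of the gene. Capitals mark TGACG (the core of the cAMP response element), TTGCG (the core of a C/EBP site), CCAAT and TATAAA on either strand.
Cebpb: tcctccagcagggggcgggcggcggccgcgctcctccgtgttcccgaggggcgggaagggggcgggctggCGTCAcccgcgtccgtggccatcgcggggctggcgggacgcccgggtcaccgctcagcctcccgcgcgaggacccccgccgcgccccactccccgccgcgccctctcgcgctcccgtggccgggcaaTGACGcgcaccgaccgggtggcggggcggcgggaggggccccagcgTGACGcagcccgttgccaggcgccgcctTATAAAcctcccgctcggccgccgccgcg
Cebpa: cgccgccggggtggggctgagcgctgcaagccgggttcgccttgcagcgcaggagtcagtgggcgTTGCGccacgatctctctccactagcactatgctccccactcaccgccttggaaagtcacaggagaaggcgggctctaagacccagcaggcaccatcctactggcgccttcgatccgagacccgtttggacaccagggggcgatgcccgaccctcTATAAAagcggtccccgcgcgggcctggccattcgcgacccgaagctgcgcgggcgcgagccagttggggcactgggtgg
Cebpg: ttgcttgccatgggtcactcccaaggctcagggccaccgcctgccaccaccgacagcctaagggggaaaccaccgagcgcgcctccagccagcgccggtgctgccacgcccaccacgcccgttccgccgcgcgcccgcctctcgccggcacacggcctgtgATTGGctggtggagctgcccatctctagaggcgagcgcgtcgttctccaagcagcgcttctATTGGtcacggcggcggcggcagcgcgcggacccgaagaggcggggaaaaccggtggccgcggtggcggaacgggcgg

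The Cebpb window held 3 matches to TGACG, beginning 180, 53 and 7 bases before the start, the first of them on the opposite strand, and 1 match to TATAAA. Its TATAAA lies after the annotated start, beginning at position 272 of the window. The Cebpa window held TTGCG 185 bases and TATAAA 30 bases before the start. The Cebpg window held CCAAT on the opposite strand, 89 and 28 bases before the start, and had 0 matches to TGACG, as had that of Cebpa. GGGCGG, the GC box, matched 5 times in Cebpb, once in Cebpg and 0 times in Cebpa. Of all 32851 RefSeq windows of this length, searched on both strands, 20.8% held TGACG, 17.4% TTGCG, 37.4% CCAAT, 13.6% TATAAA and 35.7% GGGCGG. The full cAMP response element TGACGTCA, which contains the shorter core, was held by 1.79% of windows and by none of these 3. The full C/EBP site TTGCGCAA (0.183% of windows), the AP-1 site TGACTCA (5.2%) and the STAT motif TTCNNNGAA (8.3%) likewise had 0 matches in the 3. A match is a description of the letters, and its absence says only that these letters are not in this window.

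Trimmed means of the arrays were equal (250.1 to 250.2), and pairs of arrays correlated at 0.891 to 0.98. With a median of 0.938, replicate b at 60 min had the lowest correlation with the other arrays. Arrays at 60 min had higher 99th percentiles (3852 to 4722) than those at 0 min (3474 to 3606). Their median intensities were lower, 73.1 to 80.3 at 60 min against 82.3 to 85.9 at 0 min. Bone matrix genes of the osteoblast marker list ranged at 0 min from Col1a2 at 5386 ± 304 to Ibsp at 117 ± 1.96 (SD, n = 3). The PTH receptor gene Pth1r had 1 probe set, between 6.70 and 41.6 on the 9 arrays and below the filter intensity of 44.7. In bulk RNA, fewer cells of a type and less RNA per cell cannot be told apart.

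Cebpd had the largest change of the C/EBP genes. At 0 min its intensities on replicates a, b and c were 1839, 2029.6 and 2034. At 30 min they were 2374, 3409 and 3309, and at 60 min 3061, 4448 and 3322. All 6 treated arrays lay above the 3 basal ones, which was so for 8.65% of the 7884 probe sets tested. At 30 min replicate a was the lowest array, and at 60 min replicate b was the highest. The mean rose from 1968 ± 111 at 0 min to 3611 ± 737 at 60 min (SD, n = 3 arrays), a log2 fold change of 0.85 (SE 0.16) and 1.81-fold, with an adjusted p of 0.0137 in limma's moderated test over all tested probe sets. Fold changes are on the log2(intensity + 11.8) scale, and a call is an adjusted p under 0.05. This was the 64th highest change of the 7884. At 30 min the mean was 3030.4 ± 571, with a log2 fold change of 0.60 (SE 0.16, 95% interval 0.24 to 0.97) that did not pass (limma adjusted p = 0.109).

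Cebpb passed at 60 min as well. Its basal intensities were 1597, 1653 and 1465 on replicates a, b and c. At 30 min they were 1544, 1940.2 and 1919, so replicate a stayed within the basal range and the groups overlapped. At 60 min they were 2175, 2414 and 2078, and every array lay above all arrays of 0 and of 30 min. The mean rose from 1572 ± 96.4 at 0 min to 2222 ± 173 at 60 min (SD, n = 3), a log2 fold change of 0.50 (SE 0.11) and 1.41-fold (limma adjusted p = 0.0234). At 30 min the mean of 1801 ± 223 gave a log2 fold change of 0.19 (SE 0.11, 95% interval -0.06 to 0.44, limma adjusted p = 0.407).

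**Figure D1:**
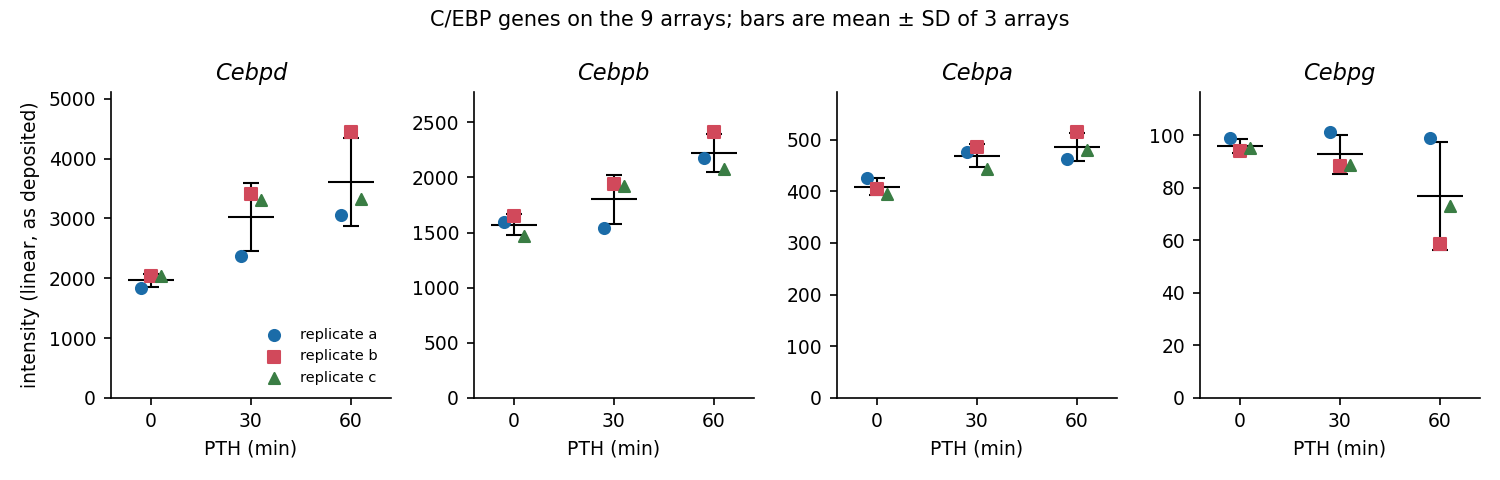
Intensity (vertical axis, linear, as deposited) of the 4 C/EBP genes against min of PTH, with 1 point per array coloured by replicate and bars for the mean ± SD of 3 arrays. Cebpd runs from 1839 at 0 min to 4448 at 60 min, while the Cebpg arrays spread from 58.7 to 98.9 at 60 min.

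Cebpa showed a small difference in the same direction. Its intensities were 426, 405 and 394 at 0 min, 477, 486 and 443 at 30 min, and 463, 515 and 479 at 60 min on replicates a, b and c. As for Cebpd, all 6 treated arrays lay above the 3 basal ones. The means were 408 ± 16.3, 469 ± 22.4 and 486 ± 26.7 (SD, n = 3). The log2 fold change was 0.19 (SE 0.10, 95% interval -0.04 to 0.42) at 30 min and 0.24 (SE 0.10, interval 0.01 to 0.47) at 60 min. Neither passed, with limma adjusted p of 0.355 and 0.135.

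Cebpg stood on the other side of 0. Its intensities were 98.98, 93.8 and 94.9 at 0 min and 101, 88.3 and 88.5 at 30 min. At 60 min they were 98.9, 58.7 and 72.8, so replicate a matched the basal arrays while replicates b and c lay below them. The groups overlapped at both times. The log2 fold change was -0.05 (SE 0.18, 95% interval -0.45 to 0.36, limma adjusted p = 0.911) at 30 min and -0.31 (SE 0.18, interval -0.71 to 0.10, limma adjusted p = 0.279) at 60 min.

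In counts, 2 of the 4 C/EBP genes rose at 60 min and 0 fell, where 4.35% of the tested probe sets were called higher, 8.73% lower and 13.1% in either direction. At 30 min limma called 0 of 4, against 0.939% of all tested (0.482% higher and 0.457% lower). At an unadjusted p under 0.05 stood 1 of 4 at 30 min, Cebpd, against 17.9% of all tested, and 3 of 4 at 60 min, Cebpd, Cebpb and Cebpa, against 32.8%. In limma's F test of any change over the 3 times only Cebpd passed (adjusted p = 0.0367, against 0.0624 for Cebpb), where 4.64% of probe sets were called. At 60 min the 3 arrays lay wholly above those of 0 min for 3 of the 4 genes, which was so for 20% of the tested probe sets. For 0 of the 4 they lay wholly below, against 20.7%. The median log2 fold change of all tested probe sets was 0.05 at 30 min and 0.03 at 60 min.

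**Figure D2:**
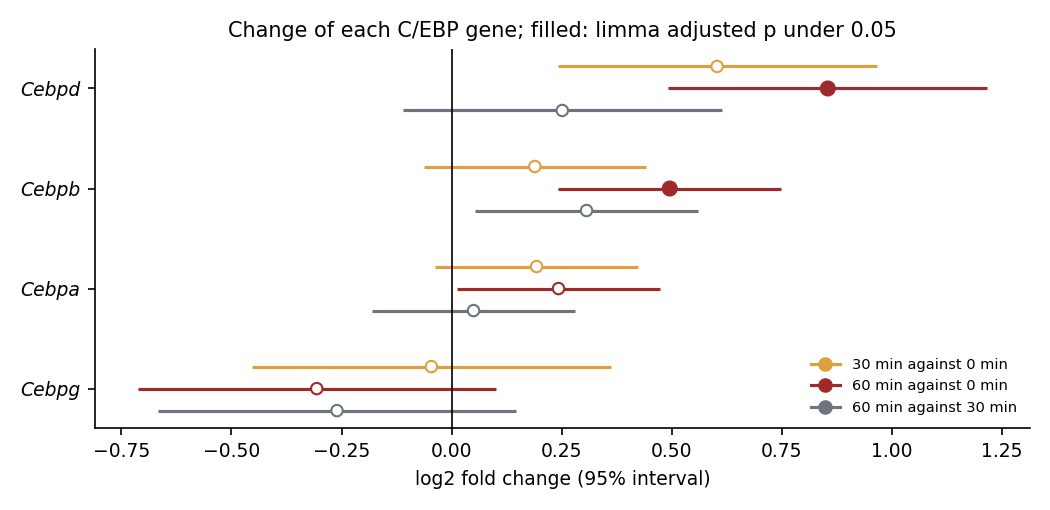
Log2 fold change (horizontal axis) of each C/EBP gene in the 3 comparisons, with 95% intervals from limma and filled points for an adjusted p under 0.05. The filled points are Cebpd at 0.85 and Cebpb at 0.50 for 60 against 0 min, and the interval of Cebpg at 60 min spans -0.71 to 0.10.

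The exact permutation test takes 1 gene at a time and needs no model across genes. Over all 1680 assignments of the 9 arrays to 3 times, the F statistic gave a p of 0.0107 for Cebpb, 0.0179 for Cebpd, 0.0179 for Cebpa and 0.179 for Cebpg, the smallest possible being 0.00357. These p-values are unadjusted and 20.3% of all tested probe sets had one under 0.05. With 3 arrays against 3, such a test cannot go under 0.1.

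**Figure D3:**
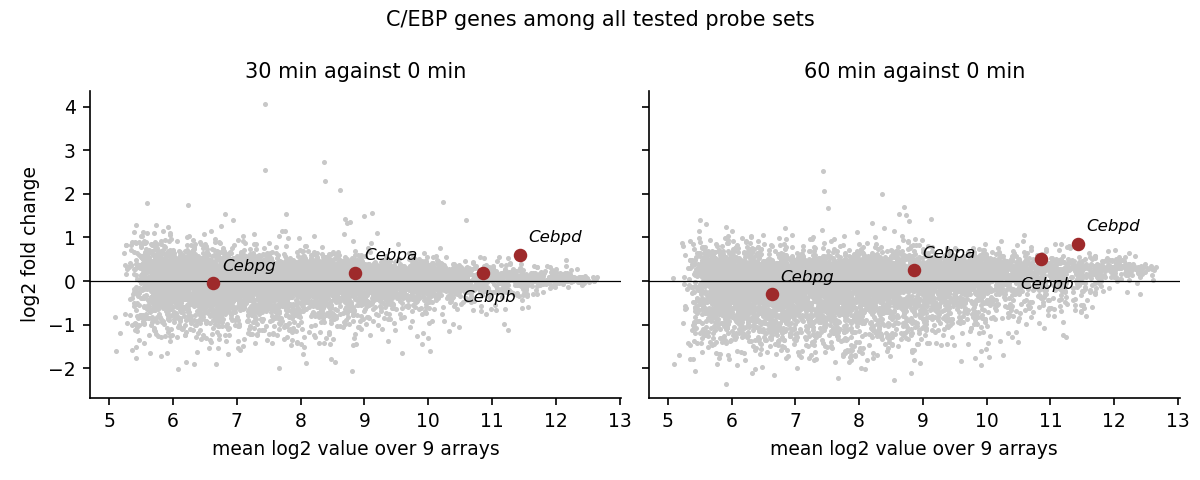
Log2 fold change (vertical axis) against the mean log2 value over the 9 arrays for all 7884 tested probe sets in grey, with the 4 C/EBP genes in red, at 30 min (left) and 60 min (right). At 60 min Cebpd at 0.85 lies near the upper edge of the cloud, and Cebpg at -0.31 lies inside it.

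The order of the mean intensities was 0, 30 and 60 min for Cebpd, Cebpb and Cebpa, and the reverse for Cebpg, but 30 and 60 min did not separate in the test. From 30 to 60 min limma called 0 of the 4, where 0.0254% of all probe sets were called. The only unadjusted p under 0.05 was that of Cebpb, a result that 9.07% of the probe sets shared. Its log2 fold change over this step was 0.31 (SE 0.11, 95% interval 0.05 to 0.56, limma adjusted p = 0.54), and its 60 min arrays lay wholly above those of 30 min, as did 5.06% of probe sets. For 0 of the 4 genes they lay wholly below, against 6.49%. Cebpd stood at 0.25 (SE 0.16, interval -0.11 to 0.61, limma adjusted p = 0.621), Cebpa at 0.05 (0.876) and Cebpg at -0.26 (0.633).

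Whether 2 of the genes changed unequally was tested on their log2 difference within each array, over 6 pairs. Relative to Cebpd, Cebpb stood at -0.41 at 30 min and -0.36 at 60 min (change of the within-array difference from 0 min), with an exact permutation p of 0.0429 over the 3 times and 0.0814 adjusted over the 6 pairs. Relative to Cebpg, Cebpd stood at 1.16 and Cebpb at 0.80 at 60 min, with exact p of 0.0321 and 0.0286, each 0.0814 when adjusted. The difference of Cebpa from Cebpb had the highest p, 0.107. No pair passed after adjustment, so unequal change was not shown for any pair. A p that misses the threshold does not show equal change either.

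Within a time the genes also varied between arrays. At 30 min Cebpd and Cebpb had their lowest array in replicate a, which lay 0.33 and 0.21 below the mean of its time on the log2 scale (deviations of -0.33 and -0.21), while Cebpa on that array deviated by 0.03. At 60 min replicate b was the highest array of Cebpd, Cebpb and Cebpa, with deviations of 0.32, 0.12 and 0.08, and the lowest of Cebpg, with -0.30. Without 30 min replicate a the log2 fold change of Cebpd at 30 min was 0.77 and passed (limma adjusted p = 0.0254), and it also passed without 60 min replicate b, at an unchanged 0.60 (0.0263), since that array enters only the spread. Without 60 min replicate b the change at 60 min was 0.70 for Cebpd (limma adjusted p = 0.0246) and 0.43 for Cebpb, which no longer passed (0.0501).

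**Figure D4:**
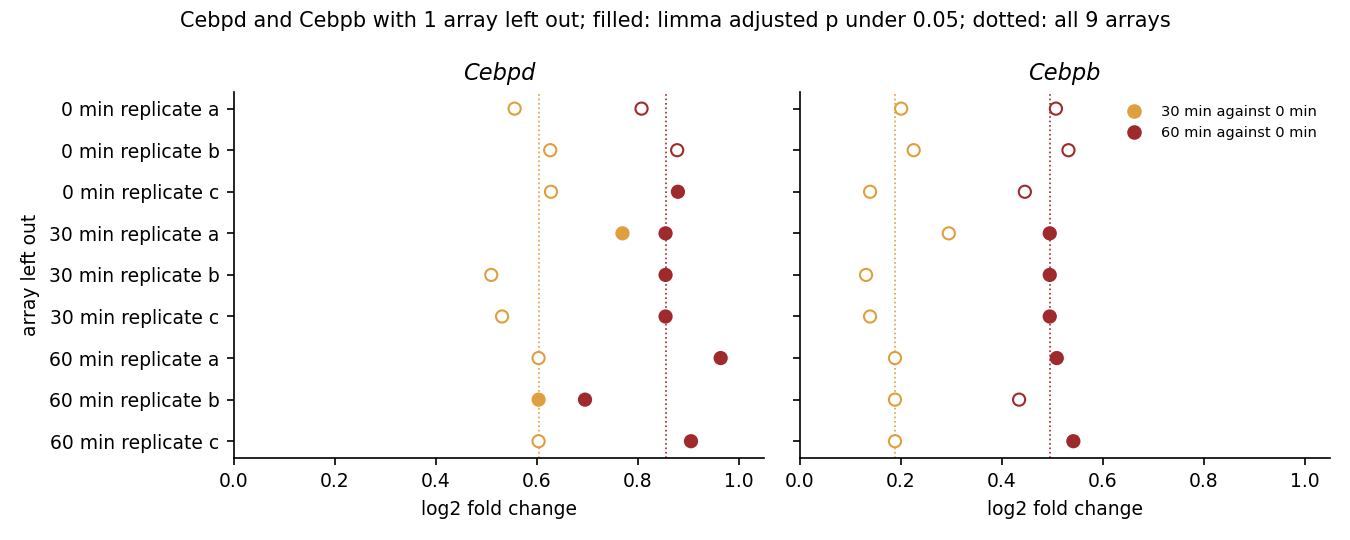
Log2 fold change (horizontal axis) of Cebpd (left) and Cebpb (right) with each of the 9 arrays left out in turn (vertical axis), filled where the limma adjusted p is under 0.05, with dotted lines for all 9 arrays. Cebpd at 60 min stays between 0.70 and 0.96 and Cebpb between 0.43 and 0.54, while the fill is lost mainly in the rows without a 0 min array.

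Leaving out basal arrays changed the calls at 60 min. That of Cebpd was lost without 0 min replicates a or b (limma adjusted p = 0.0671 and 0.0583), and that of Cebpb without 0 min replicates a, b or c (0.0843, 0.0722 and 0.0837), with log2 fold changes of 0.81 and 0.88 for Cebpd and 0.45 to 0.53 for Cebpb. The loss ran through the series: with all arrays limma called 343 probe sets higher and 688 lower at 60 min. Without 0 min replicates a, b and c it called 31, 38 and 72 higher and 46, 69 and 187 lower. After quantile normalization, which gives every array the same distribution, Cebpd stood at 0.71 and Cebpb at 0.42 at 60 min and both passed (limma adjusted p = 0.0128 and 0.0243), and Cebpd also passed at 30 min, at 0.63 (0.0473). After cyclic loess Cebpb stood at 0.35 and no longer passed (limma adjusted p = 0.0518).

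The genes with the most similar course were taken as the 5 other tested probe sets with the highest Pearson r over the 9 arrays. For Cebpd these were Apba3 (r = 0.983), Slc25a28, Gpx4, Psma7 and Lsm4 (0.979). Gpx4 encodes a peroxidase that protects membrane lipids and Psma7 a proteasome subunit. For Cebpb they were Egln2 (0.981), a prolyl hydroxylase of hypoxia signalling, Tmem14c, Coprs, Abcb4 and Atp5a1 (0.968). For Cebpa they were Rfc5 (0.965), Snrnp25, Mrps14, Wsb2 and Odc1 (0.949), and for Cebpg Uchl5 (0.965), Akap8, Csnk2a1, Cdh11 and Psmd6 (0.957). These r describe 9 arrays that share the time groups and array-wide deviations, and Coprs and Csnk2a1 were measured by probe sets whose names mark possible cross-hybridisation. Without 60 min replicate b, an alternative chosen after seeing the data, r lay between 0.865 and 0.981.

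Among other leucine zipper partners and relatives, 12 of 16 names had a probe set and 10 genes were tested. Limma called 0 of these 10 at 30 and at 60 min. At an unadjusted p under 0.05 there were 3 higher at 30 min, against 17.9% of all tested probe sets in either direction. At 60 min there were 2 higher and 1 lower, against 32.8%. The median log2 fold change was 0.28 at 30 min and 0.18 at 60 min, and 0.02 at 60 min without 60 min replicate b. The brightest were Atf4, a stress-response factor that osteoblasts need, at 0.28 (SE 0.15, limma adjusted p = 0.222) at 60 min, and Tef at -0.08 (0.779). Without 60 min replicate b Atf4 stood at 0.48 and passed (limma adjusted p = 0.0184). Ddit3, which encodes the dimer partner CHOP that blocks C/EBP binding at classical sites, was picked after its values were seen. It measured 248, 251 and 199 at 0 min and 217, 198 and 168 at 60 min, so the groups overlapped, and its log2 fold change was -0.25 (limma adjusted p = 0.26). The cAMP-induced repressor gene Crem had 2 probe sets, both below the filter.

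Of genes known as C/EBP targets, 26 of 30 names had a probe set and 22 were tested. At 30 min 1 rose, Ccn1, and at 60 min 2 rose, Ccn1 and Cxcl1, with 0 falls at either time. Of all tested probe sets 0.482% were called higher and 0.457% lower at 30 min, and 4.35% and 8.73% at 60 min. At an unadjusted p under 0.05 in limma there were 4 targets higher and 1 lower at 30 min, against 17.9% of all tested probe sets in either direction. At 60 min 5 were higher and 4 lower, against 32.8%. Ccn1, a matricellular protein, measured 305, 287 and 244 at 0 min, 707, 871 and 837 at 30 min and 531, 453 and 663 at 60 min, so all treated arrays lay above the basal ones. Its log2 fold change was 1.49 (SE 0.16, limma adjusted p = 0.00146) at 30 min and 0.94 (0.00912) at 60 min, and both calls remained whichever array was left out. Cxcl1, a neutrophil chemokine, measured 3838, 3891 and 3288 at 0 min, 4656, 5469 and 5181 at 30 min and 5364, 4881 and 4973 at 60 min, so all treated arrays lay above the basal ones. Such a separation, seen for Ccn1 and Cxcl1, held for 8.65% of all tested probe sets. The log2 fold change of Cxcl1 was 0.47 at both times (SE 0.10), with a limma adjusted p of 0.0535 at 30 min and 0.0173 at 60 min. At 30 min it passed under 4 of the 10 other settings and in 2 of the 9 fits that left out 1 array. At 60 min a second probe set stood at 0.42 (0.0221). The 60 min call of Cxcl1 was lost without any 0 min array, after quantile normalization (log2 fold change 0.20) and after cyclic loess (0.24). The median of the 22 was 0.02 at 30 min and 0.07 at 60 min, beside 0.05 and 0.03 for all tested probe sets.

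Of genes that act upstream of C/EBP expression and activity, 22 of 28 names had a probe set and 18 were tested. At 60 min 4 fell, 1 rose and 13 did not pass, where 8.73% and 4.35% of all probe sets were called lower and higher. The 4 that fell were Jak2 and Jak1, kinases of cytokine receptors, Osmr, the receptor for oncostatin M, and Nr3c1, the glucocorticoid receptor. Jak2 measured 191, 169 and 189 at 0 min, 113, 82.6 and 100.01 at 30 min and 114, 59.2 and 94.3 at 60 min, with no treated array in the basal range. All 6 treated arrays lay below the 3 basal ones for 12.4% of all tested probe sets. Jak2 fell by 0.99 on the log2 scale (SE 0.21, limma adjusted p = 0.0183) at 60 min. Its second probe set, at 2 to 8.8 on the arrays, lay below the filter and was not tested.

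Osmr measured 1184, 1181 and 1109 at 0 min, 721, 863 and 729 at 30 min and 882, 589 and 846 at 60 min, again with no overlap. It fell by 0.60 at 60 min (SE 0.15, limma adjusted p = 0.0309), Jak1 by 0.54 (SE 0.13, 0.0286) and Nr3c1, from a dim 68.0 ± 1.35 to 34.2 ± 8.44 (SD, n = 3), by 0.81 (SE 0.22, 0.0352). Nr3c1 passed the filter through its 0 min arrays and 1 array of 30 min. All 3 of its arrays of 60 min lay below the filter intensity, so its fall ends in dim values and supports nothing about the list. Gsk3a, a kinase that phosphorylates C/EBP proteins and was named after its value was seen, was the 1 that rose, by 0.40 (SE 0.10, limma adjusted p = 0.0262). The calls of Jak2, Jak1, Osmr, Nr3c1 and Gsk3a were each lost without any 0 min array. That of Nr3c1 was also lost without 30 min replicate c or 60 min replicates b or c and after quantile normalization or with no filter (limma adjusted p = 0.0507 and 0.0551). That of Gsk3a was also lost after cyclic loess (0.0777) and, like that of Osmr, without the variance trend (0.0578 and 0.052). At 30 min 0 of the 18 passed in limma. At an unadjusted p under 0.05 there were 1 higher and 6 lower, against 17.9% of all tested probe sets in either direction. The median of the 18 was -0.17 at 30 min and -0.39 at 60 min, and -0.25 at 60 min without 60 min replicate b.

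**Figure D5:**
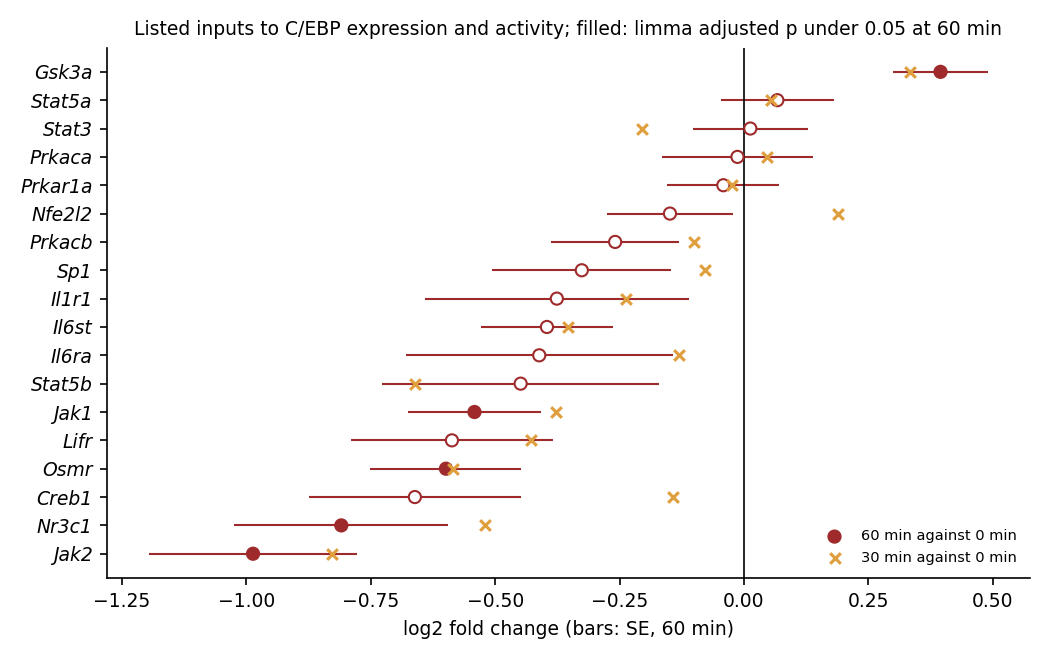
Log2 fold change (horizontal axis) of the 18 tested genes upstream of C/EBP expression and activity, with circles and SE bars for 60 against 0 min, filled for a limma adjusted p under 0.05, and crosses for 30 against 0 min. At 60 min the 18 genes ran from -0.99 for Jak2 to 0.40 for Gsk3a.

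Markers of the cell types in which C/EBP genes are prominent were mostly dim. Of the adipocyte list 9 of 12 names had a probe set and 3 genes were tested, and of the myeloid list 12 of 15 had one and 5 were tested. Limma called 0 of these at either time, and the only unadjusted p under 0.05 was 1 lower myeloid gene at 30 min. Of all tested probe sets 17.9% had an unadjusted p under 0.05 at 30 min and 32.8% at 60 min. The fat hormone gene Adipoq lay between 14.2 and 27.4 on the 9 arrays, and the 3 probe sets of the leukocyte gene Ptprc between 0.3 and 18.1. Not all were dim: at 0 min the myeloid marker Cd14 measured 976 ± 81.7 and the adipocyte marker Lep 387 ± 138 (SD, n = 3). Cebpa measured 408 ± 16.3 at that time. The summed intensity of the adipocyte list ranged from 467 to 755 at 0 min, 699 to 806 at 30 min and 531 to 885 at 60 min, and that of the myeloid list from 1400.3 to 1589, 1554 to 1602 and 1482 to 1861. The brightest were Lep at 0.46 and 0.21 and Fabp4 at -0.17 and -0.09, and Cd14 at 0.10 and 0.27 and Cd68 at -0.10 and -0.24 (log2 fold changes at 30 and 60 min). Without 0 min replicate a Lep stood at 0.14 and -0.12, and its second probe set, at 20.2 to 35.1, lay below the filter. Without 60 min replicate b it stood at -0.08 at 60 min. No marker gene was listed at 0. The part of such cells in the C/EBP values was not tested.

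Of the osteoblast list 10 of 15 names had a probe set and 9 genes were tested, with 0 called at 30 min. At an unadjusted p under 0.05 in limma there were 0 higher and 2 lower at 30 min, against 17.9% of all tested probe sets in either direction. At 60 min 2 rose and 2 fell, where 4.35% of all tested probe sets were called higher and 8.73% lower. The homeobox gene Dlx5 rose by 0.52 (SE 0.12, limma adjusted p = 0.0247) and Col1a1 by 0.56 (0.0499), while Omd and Postn fell by 1.93 and 1.23. The dimmer of the Col1a1 probe sets gave 0.08 (limma adjusted p = 0.692), so they disagreed. Leaving out any basal array ended the calls of Dlx5 and Postn, and leaving out 60 min replicates b or c also that of Dlx5. The call of Omd was lost without 0 min replicates a or b, and that of Col1a1 in 7 of the 9 fits that left out 1 array. The median of the list at 60 min was 0.17 as deposited, -0.05 after quantile normalization and -0.05 after cyclic loess.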

How the data were processed

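For each of 12488 probe sets the deposited table gives a linear intensity on every array. The sources used here do not give the authors' software or summary method. The table was used as it stands, because its means with 2% trimmed off each end were equal between arrays. Values were converted to log2(intensity + 11.8), the 20th percentile of all values. Probe sets with at least 3 of 9 arrays above the 40th percentile (44.7) were tested, without 66 control probe sets, which left 7884. The model, with a mean for each time over the 9 arrays, was fitted by limma 3.58.1 under R 4.3.3 (eBayes with a trend, 6 residual degrees of freedom), and p-values were adjusted by Benjamini-Hochberg over all tested probe sets. The fit and the permutation step were tested on simulated data.

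The genes and lists were chosen with earlier results of these data known. Named genes were all C/EBP genes, up to 4 called genes of each list with the largest change (otherwise the 2 brightest) per comparison with 0 min, and the 5 probe sets most like each C/EBP gene; a gene is described by its brightest probe set. The lists were leucine zipper partners, C/EBP targets, upstream genes, and osteoblast, adipocyte and myeloid markers; some names are synonyms, and some genes stand in more than 1 list. Platform annotation gave 10833 probe sets 1 symbol, 396 several and 1193 none, and only the first were named. The Entrez identifiers of all 4 C/EBP genes matched the RefSeq gene table of GRCm38.p6. The number of arrays limits the precision. Python 3.11.15 and matplotlib 3.10.9 made the plots.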

Additional observations from a re-analysis of the deposited data

How the results depend on the processing

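Both directions at 60 min, higher for Cebpd, Cebpb and Cebpa and lower for Cebpg, were the same under every constant, filter, scaling and array left out in which the gene was tested. Excluding the fits with 1 array left out, the log2 fold change at 60 min ranged from 0.67 to 0.92 for Cebpd, 0.35 to 0.56 for Cebpb, 0.22 to 0.31 for Cebpa and -0.35 to -0.16 for Cebpg, which a filter at the 60th percentile removed. The count of C/EBP genes called at 60 min, 2 of 4, was 1 after cyclic loess and 0 to 2 with 1 array left out. At 30 min, where 0 were called, it was 1 after quantile normalization, with the replicate block and with only the 2 times compared, and 0 to 1 with 1 array left out, the gene being Cebpd. The F test called 1 gene, 0 without a filter or without the variance trend, 2 with the replicate block, and 0 to 2 with 1 array left out. From 30 to 60 min every alternative gave 0.

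Of the genes on the lists, 1 was called at 30 min, against 2 with 4 times the constant, with the stricter filter, after quantile normalization and after cyclic loess, 6 with the replicate block and 7 with only the 2 times compared, and 1 to 10 with 1 array left out. At 60 min 11 were called, 8 without the variance trend to 15 with the replicate block, and 1 to 16 with 1 array left out. Cyclic loess ended the 60 min calls of Cxcl1, Gsk3a and Col1a1, and Col1a1 was lost under 6 of the 10 settings, standing at 0.33 after quantile normalization. Pairing of the arrays across times by replicate letter was neither shown nor excluded. The 9 correlations of their deviations lay between -0.13 and 0.30. Over 0.1 were 2 of them, replicates a (0.30) and b (0.25) between 30 and 60 min. An array's best match at another time had its own letter in 8 of 18 cases. With the replicate block the limma adjusted p of Cebpd was 0.0279 at 30 min and 0.00281 at 60 min. Leaving out a 0 min array leaves 2 basal arrays, and leaving out a 60 min array leaves 2 arrays at that time. Without 60 min replicates a, b and c limma called 534, 155 and 181 probe sets higher at 60 min. It called 1050, 373 and 465 lower. The cause of the differences between settings was not tested.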
